A study of Mus musculus with 87 samples.

Results

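The subunits of the respiratory chain that are encoded in the nucleus were described in mouse cells, embryos and tissues profiled by RNA-seq. They were every row of the count tables whose symbol began with Ndufa, Ndufb, Ndufc, Ndufs or Ndufv and a digit, with Uqcr, with Cox4 to Cox8 or with Atp5, and the Sdha, Sdhb, Sdhc and Sdhd genes. Ndufa4l2 and pseudogene symbols ending in -ps and digits were left out. The rule, which used names and no measured value, found 86 genes among 25277 rows. There were 38 for complex I, 4 for complex II, 8 for complex III, 19 for complex IV and 17 for complex V. Ndufa4 was placed with complex IV, of which its protein is now known to be a subunit. Ndufs5-ps has no digit after -ps and was kept, but its counts were 1 to 1.01 times those of Ndufs5 in WT haploid cells and 1.99 to 2.21 times in E18.5 pWT heart of batch 2, so the 2 rows share reads in a way that differed between tables and both are uncertain. Some members, such as Ndufa11b, Ndufb4c, Cox7b2, Cox8b and Cox8c, are copies or isoforms used in few tissues.

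The respiratory chain sits in the inner mitochondrial membrane. Complex I takes electrons from NADH and complex II, which is also the succinate dehydrogenase of the TCA cycle, takes them from succinate. Coenzyme Q carries them to complex III, cytochrome c carries them on to complex IV, and oxygen accepts them there. Complexes I, III and IV pump protons, and complex V, the ATP synthase, uses the proton gradient to make ATP. Complexes I, III, IV and V also hold subunits encoded in mitochondrial DNA, and 0 of those were rows of the tables. Heart muscle is rich in mitochondria, while mitochondria of the earliest embryo are sparse in cristae and mature up to the blastocyst.

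The study used androgenetic haploid embryonic stem cells (AG-haESC), which carry a single paternal genome, and semi-cloned embryos and mice, for which such cells take the place of sperm. Cells had the genotype labelled Dnmt WT (3 libraries), Dnmt TKO (3) or Dnmt STOP (2). Embryos labelled pWT or pIR were sampled at the 2-cell stage (2C; 4 and 4), as morulae (3 and 4) and as blastocysts (4 and 4). The count columns of these pWT embryos carried another prefix and were matched to their samples by elimination. The 2C counts came in a different table from those of morulae and blastocysts. Differences between 2C and the later stages can therefore not be told apart from a difference between tables. Tissues of embryonic day E18.5 came in batches. Batch 1 had pWT and pTKO libraries of 5 tissues, namely heart, brain, lung, kidney and liver (2 and 2 each), and batch 2 had pWT and pIR libraries of liver and heart (4 and 4 each). At postnatal day 1 (P1) there were heart, kidney, liver and lung of pWT (3 each) and pIR (2 each). Each tissue of batch 1 had its own count table, so tissue and table cannot be told apart there. The meaning of STOP, pIR and the prefix p, the strain, the sex and the number of animals or cell clones behind the libraries are not given in the sources used here. P-values therefore measure the spread between libraries, which may be technical. The protocol names a poly(A) kit for total RNA and a Smart-seq2 kit for small inputs, without saying which library had which. Levels of embryos against tissues can therefore not be told apart from a difference of kit.

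The 87 libraries held totals of 6.14 to 24 M counts in embryos, 16.8 to 24.5 M in haploid cells and 10.7 to 37.4 M in tissues. Tissue markers matched the labels, as the summed level of the cardiomyocyte list was at least 46488 CPM (counts scaled to the library total) in every heart and at most 1601 elsewhere, the latter in P1 pWT lung. The hepatocyte list reached at least 66724 CPM in liver, the kidney tubule and glomerulus list at least 2156 CPM in kidney, the lung epithelium list at least 16304 CPM in lung and the neural list at least 7701 CPM in brain. None of those lists had a gene at 0 in its own tissue. Fold changes are from edgeR's quasi-likelihood test with TMM scaling and are given as log2 values ± SE, "called" means a Benjamini-Hochberg adjusted p under 0.05 over all genes tested, and members not tested had too few counts. Where leaving out a library left 1 in a group, the spread came from the other libraries of the fit and the lone library was assumed to vary like them, so such a count is no measure of stability.

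Promoter sequences are shown for 4 members, because they are isoform pairs whose use changed between 2C and morula or between haploid genotypes. Cox7b and Cox7b2 encode complex IV subunit VIIb, and Cox6b1 and Cox6b2 encode subunit VIb. Cox6b2 and Cox7b2 are best known from the testis. Each sequence is the RefSeq reference (GRCm38.p6) of the 250 bases before the gene's start on its own strand. CpG dinucleotides, the sites that Dnmt enzymes methylate, are in capitals. Cox7b lies at chrX:106015450-106015699 (plus strand), Cox7b2 at chr5:71548206-71548455 (minus strand), Cox6b1 at chr7:30626115-30626364 (minus strand) and Cox6b2 at chr7:4753095-4753344 (minus strand).
Cox7b: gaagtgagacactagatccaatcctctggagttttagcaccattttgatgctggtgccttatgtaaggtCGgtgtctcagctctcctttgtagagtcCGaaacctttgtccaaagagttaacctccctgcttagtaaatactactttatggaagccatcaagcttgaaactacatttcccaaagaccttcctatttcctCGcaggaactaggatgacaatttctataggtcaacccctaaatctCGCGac
Cox7b2: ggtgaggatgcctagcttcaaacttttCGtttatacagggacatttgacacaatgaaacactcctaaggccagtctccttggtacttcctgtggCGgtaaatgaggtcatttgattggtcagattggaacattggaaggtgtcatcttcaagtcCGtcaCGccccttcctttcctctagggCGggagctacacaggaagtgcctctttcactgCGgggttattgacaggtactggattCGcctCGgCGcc
Cox6b1: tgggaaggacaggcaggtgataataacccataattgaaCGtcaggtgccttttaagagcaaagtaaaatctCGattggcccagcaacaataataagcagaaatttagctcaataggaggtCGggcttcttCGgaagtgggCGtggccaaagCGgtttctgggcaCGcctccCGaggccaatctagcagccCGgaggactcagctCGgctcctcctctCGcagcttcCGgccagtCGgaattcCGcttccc
Cox6b2: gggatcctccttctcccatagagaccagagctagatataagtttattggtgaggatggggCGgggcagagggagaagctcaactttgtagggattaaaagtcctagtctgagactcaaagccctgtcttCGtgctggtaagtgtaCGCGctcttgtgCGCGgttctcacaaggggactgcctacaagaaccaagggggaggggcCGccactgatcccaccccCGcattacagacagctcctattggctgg
The windows hold 5 CpG sites for Cox7b, 9 for Cox7b2, 14 for Cox6b1 and 8 for Cox6b2. Over 73 promoters of the members the median was 14 CpG sites, and 100% had at least 1, against a median of 6 and 92.1% over 32851 promoters. The heart isoform Cox8b had 1 CpG and its widely expressed partner Cox8a had 11. Methylation itself was not analysed here.

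Motifs of factors known to drive respiratory chain genes were searched as exact letters on both strands, from 250 bases before to 50 bases after the start, in the 68 members with a RefSeq promoter. The NRF1 motif GCGCATGC was in 10 members (14.7%), against 3.05% of 27025 genes. These were Ndufa6, Ndufa8, Ndufa11, Sdhb, Uqcr11, Uqcrc1, Cox6a1, Atp5g2, Atp5k and Atp5l, so all 5 complexes had one. The YY1 motif AAGATGGCG was in 7 members (10.3%, against 1.64%), of which 5 were complex I genes (Ndufa9, Ndufc1, Ndufs4, Ndufs6 and Ndufs7) and 2 complex V genes (Atp5j and Atp5j2). The motif of estrogen-related receptors, AAGGTCA, was in 8 members (11.8%, against 5.38%), among them Ndufb2, Ndufb4, Sdhd, Atp5e and Atp5g3. The GABPA motif CCGGAAGT was in 5 (7.35%, against 4.31%), namely Ndufs3, Uqcr11, Uqcrh, Cox8a and Atp5h. The NRF1, YY1 and GABPA motifs each contain a CpG, and the members' promoters held more CpG sites than all promoters (median 14 against 6). The part of CpG content in these shares was not tested. A motif match describes the sequence and does not show that a factor binds there.

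Together the 86 genes took 0.546% of all counts in E18.5 pWT brain and 4.83% in E18.5 pWT heart of batch 1, the lowest and highest control groups. In pWT embryos their summed level was 4706, 8327, 5791 and 6012 CPM at the 2C stage, 22159, 25903 and 25745 CPM in morulae and 38213, 38611, 43799 and 41902 CPM in blastocysts. The 3 stages did not overlap, and the blastocyst mean was 40631 ± 2682 CPM (SD, n = 4). WT haploid cells were at 8848, 8187 and 8279.5 CPM. Heart stood above the other pWT tissues at both ages, with 49949 and 46710.4 CPM at E18.5 in batch 1 and 43366, 49712 and 44468 CPM at P1. Kidney had 14696 and 16080.3 CPM at E18.5 and 12711, 13779.5 and 12254 CPM at P1, and liver 8965 and 8100.3 CPM at E18.5 in batch 1 and 12836, 11719.6 and 12257 CPM at P1. The order of kidney and liver turned with the scale. With TMM sizes over all libraries, liver was at 12545 ± 914 and kidney at 10204 ± 819 at E18.5 (SD, n = 2 each), and liver at 13586 ± 360 and kidney at 8081 ± 500.0 at P1 (SD, n = 3 each), while heart was above both at either age. Lung (6166, 6695 and 6651 CPM at P1) and brain (5345 and 5583 CPM at E18.5) were lowest. Fewer cells of a type and less RNA per cell cannot be told apart in such bulk libraries. E18.5 pWT heart differed between batches, with 26454, 29072, 29664 and 30642 CPM in batch 2, so mutants are compared only within their batch.

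**Figure D1:**
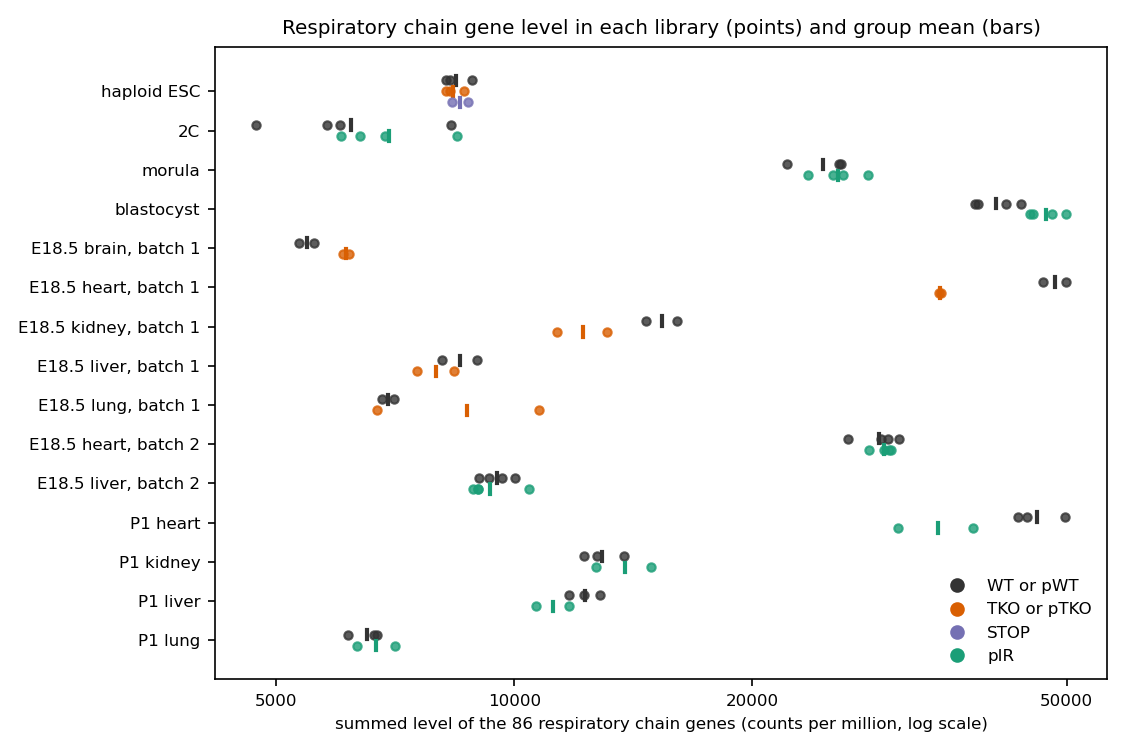
Summed level of the 86 genes in each library (points, CPM on a log scale) by group, with the group mean as a vertical bar. Control hearts, morulae and blastocysts lie to the right of all other control groups, and pTKO E18.5 hearts and pIR P1 hearts lie left of their controls.

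The complexes kept similar shares of the members' counts in tissues, where complex V held 37.9% to 46.0% and complex I 21.3% to 26.1% as pWT group means. The 2C embryo stood apart, with 46.8% of the members' counts in complex IV and 22.1% in complex V. By the morula complex IV was at 20.7%, complex I at 31.9% and complex V at 30.3%. WT haploid cells had 47.1% in complex V, just above the tissues.

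**Figure D2:**
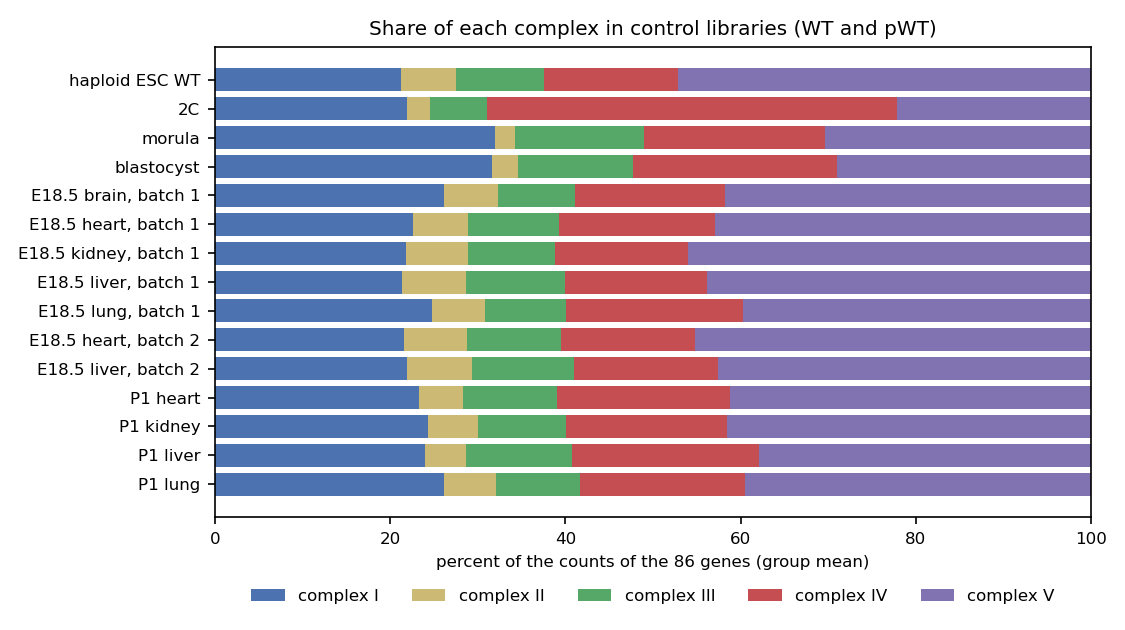
Share of each complex in the counts of the 86 genes (horizontal axis, percent, group mean) in the 15 control groups. The 2C embryo has the widest complex IV segment, at 46.8%.

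Levels of single members were compared per kb of transcript. At P1 the pWT heart was led by Atp5g3, a gene for the c-ring of the ATP synthase (2325 CPM per kb), by Atp5b, its catalytic beta subunit (2315), and by Cox4i1, the common form of complex IV subunit IV (2219). Uqcrh of complex III (1658 CPM per kb), Ndufb8 of complex I (881) and Sdhb, the iron-sulfur subunit of complex II (469), led their complexes there. In pWT 2C embryos the highest members were Cox8a (1121 CPM per kb), Ndufa4 (886) and Cox6b2 (687), all of complex IV. At the same stage the complex III core subunit Uqcrc1 was at 3.65 CPM per kb and the complex I subunit Ndufb10 at 1.04. Blastocysts were led by Uqcr10 (2855 CPM per kb), Cox6a1 (2319) and Atp5j (2137), and WT haploid cells by Atp5b (671). The Cox6a1 mean includes 1 blastocyst library at 1908 CPM, against 1072 to 1169 CPM in the others. The median member of complex I rose from 26.6 CPM per kb in 2C embryos to 243 in morulae and 360.1 in blastocysts, while the median of complex IV went from 110.0 to 250.4 and 694.

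Isoforms replaced each other by stage and tissue. Each share below is that of an isoform in its family's counts per kb. Cox6b2 held 85.3% ± 5.44 (SD, n = 4) of the Cox6b family in pWT 2C embryos and 3.01% ± 2.45 (SD, n = 3) in morulae. Its share in 2C embryos labelled pIR was 89.5%. Among the c-ring genes, which encode the same mature protein, Atp5g1 went from 65.9% at the 2C stage to 41.6% in morulae and 21.1% in blastocysts, where Atp5g3 held 68.8%. The lengths used were 2676 bases for Atp5g1, 586 for Atp5g2 and 718 for Atp5g3. The order of Atp5g1 and Atp5g3 in blastocysts depends on these lengths. The muscle forms marked the heart. Cox6a2 held 47.2% of its family in E18.5 heart of batch 1, 68.0% in batch 2 and 67.9% at P1. Cox7a1 held 53.7%, 28.2% and 33.6%, and Cox8b 39.7%, 38.5% and 38.8%, in the same order. P1 lung had 9.03% Cox6a2 and 4.36% Cox8b, beside a cardiomyocyte list of 755, 1342 and 1601 CPM, and the part of heart tissue in these lung values was not tested. Cox4i2, the form linked to lung and to low oxygen, held 13.8% of its family in E18.5 lung and 13.0% in P1 lung. Cox6b2 was also 16.1% of its family in P1 liver.

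**Figure D3:**
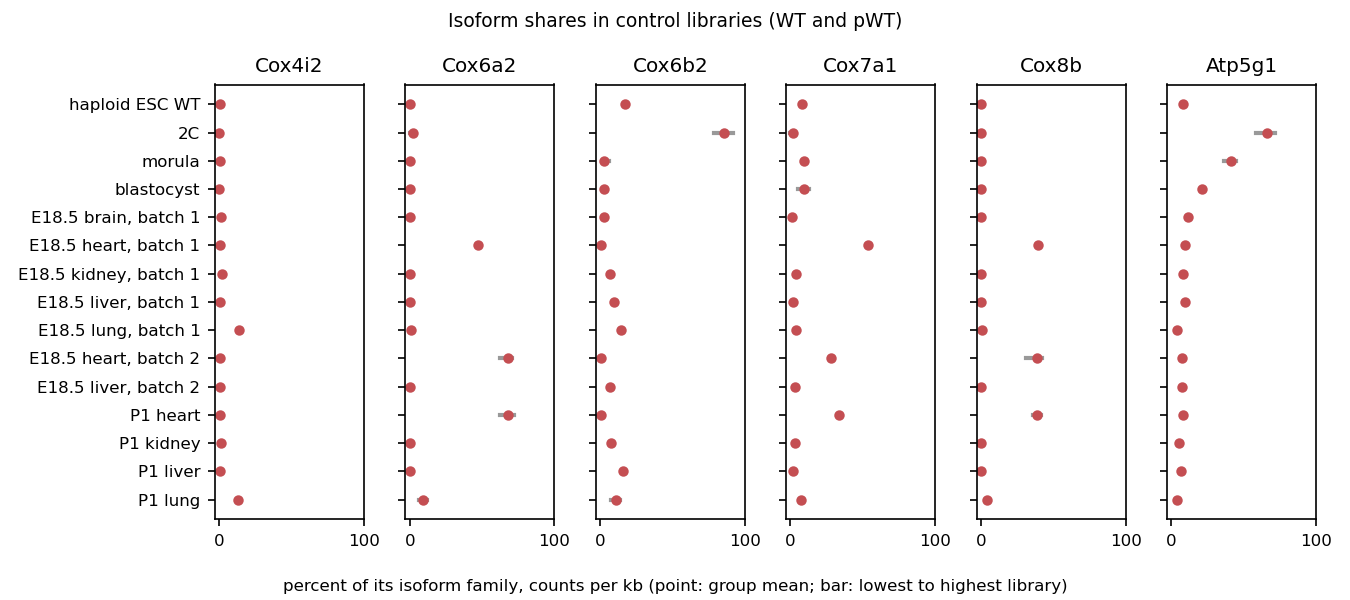
Share of 6 isoforms in their families (horizontal axis, percent of counts per kb) in the 15 control groups, with the group mean as a point and the lowest to highest library as a bar. Cox6b2 and Atp5g1 peak at the 2C stage, Cox6a2, Cox7a1 and Cox8b in heart, and Cox4i2 in lung.

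Between 2C and morula most members rose. These stages came in different count tables, and the part of that in the rise was not tested. Of 82 tested, 57 were called higher in pWT morulae, where 20.3% of all genes were, and 3 lower, where 22.2% were. The members' median log2 fold change was 2.12, against 0 over all genes. By complex, 27 of 37 tested rose in complex I, 2 of 4 in II, 7 of 8 in III, 6 of 16 in IV and 15 of 17 in V. Uqcrb, a small subunit of complex III, was at 3.67, 7.93, 6.92 and 3.63 CPM in the 2C libraries, at 723, 661 and 752 in morulae and at 953, 899.8, 1011 and 916 in blastocysts. Its log2 fold change from 2C to morula was 6.49 ± 0.38, adjusted p = 1.51e-06. Cox4i1 went from 37.4, 25.6, 23.1 and 25.01 to 504, 552 and 498 CPM, a log2 fold change of 3.72 ± 0.26, adjusted p = 3.67e-06. Neither gene's ranges overlapped between the stages. Ndufb3 (4.76 ± 0.39), Ndufb4 (3.96 ± 0.36) and Atp5j (4.71 ± 0.43) rose as clearly. In complex II, Sdhb (4.37 ± 1.11) and Sdhd (2.097 ± 0.73) were called, whereas Sdha had adjusted p = 0.345 and Sdhc 0.725. For Sdhd, 1 of the 4 2C libraries stood far below the others, at 0.614 CPM from 11 counts.

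Cox6b2 went the other way, from 181, 514, 439.8 and 384 CPM in 2C embryos to 5.67, 24.6 and 5.29 in morulae, with a log2 fold change of -5.54 ± 0.74, adjusted p = 0.000171. Its partner Cox6b1 rose from 54.3, 104, 42.1 and 71.3 to 374, 444 and 383 CPM (2.05 ± 0.32, adjusted p = 0.000445), so the isoforms moved in opposite directions. The muscle isoform Cox6a2 had 4.5, 0, 6.17 and 3.15 CPM in 2C embryos and no count in any morula, and Cox8a (-0.80 ± 0.29, adjusted p = 0.0413) was called with ranges that overlapped. Other mitochondrial lists moved too. Of the mitochondrial ribosomal proteins 48 of 78 tested rose and 1 fell, of the assembly factors 20 of 50 rose and 4 fell, and of the TCA cycle genes 9 of 18 rose and 1 fell. Glycolysis genes were called 4 higher and 4 lower of 20. Between morula and blastocyst 0 members were called, where 2.58% of all genes were. Here 8 of 82 had an unadjusted p under 0.05, against 2389 of 14540 genes. DESeq2 called 5, against 897 genes higher and 653 lower of 14540. In CPM 65 of 82 had blastocyst ranges above morula ranges, but the share of all genes with such ranges was not counted. The median log2 fold change was 0.49, against 0.04 over all genes.

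Heart exceeded the other pWT tissues for nearly every member. At E18.5 in batch 1, 81 of 83 tested were called higher in heart than in the mean of brain, kidney, liver and lung, where 27.6% of all genes were, and 1 lower, where 18.7% were. The median log2 fold change was 2.80, and complex medians ran from 2.57 (II) to 2.97 (III). Ndufs6, a complex I subunit, was at 241 and 223 CPM in heart, with a log2 fold change of 3.52 ± 0.08, adjusted p = 4.12e-07, and Cox6c at 633 and 593 CPM, with 3.34 ± 0.08, adjusted p = 4.12e-07. Cox7a1 was at 217 and 226 CPM in heart, with 8.22 ± 0.22, adjusted p = 5.01e-07. At P1, 82 of 83 were called higher in heart than in the mean of kidney, liver and lung, where 32.4% of all genes were, and 1 lower, where 34.3% were, with a median of 2.29. Atp5c1, the gamma subunit that turns inside the ATP synthase, was at 1204, 1316 and 1208 CPM in P1 heart (2.54 ± 0.07, adjusted p = 6.99e-13), and Cox5b at 638, 691 and 628 CPM (2.45 ± 0.07, adjusted p = 9.42e-13). In batch 2, heart against liver gave 77 of 83 higher and 2 lower, where 40% and 41.6% of all genes were. The median log2 fold change there, against liver alone, was smaller at 0.85, and complex medians ran from 0.77 (III) to 0.89 (V). The member lower in heart in all 3 comparisons was Cox6b2, with log2 fold changes of -0.67 ± 0.18 at E18.5 in batch 1, -3.40 ± 0.24 in batch 2 and -2.22 ± 0.17 at P1. The other lower call, Cox6a1 in batch 2 (-0.30 ± 0.07), turned with the scale, since its CPM was higher in heart (119, 114, 123 and 119 against 83.5, 88.7, 97.8 and 101).

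Related lists differed in how far they were high in heart. Against the mean of the other tissues, all 18 TCA cycle genes tested were higher in E18.5 heart of batch 1 and in P1 heart, and in batch 2, against liver alone, 16 were higher and 1 lower. Mitochondrial ribosomal proteins were higher in 75 of 78 in batch 1 and 76 at P1, with 0 lower in both, but 35 were higher and 16 lower in batch 2, with a median of 0.09. Assembly factors were 43 higher and 0 lower of 50 in batch 1, 44 and 1 at P1 and 27 and 8 in batch 2. Electron carriers were 8 and 0 of 10 in batch 1, 8 and 2 at P1 and 5 and 4 in batch 2. Regulators of mitochondrial gene expression were mixed, with 9 higher and 1 lower of 21 in batch 1, 12 and 7 at P1 and 9 and 10 in batch 2. Esrra, an estrogen-related receptor, had a log2 fold change of 3.04 ± 0.12 in batch 1, and Ppargc1b, its coactivator, 3.64 ± 0.15. Kidney was compared with the remaining tissues. At E18.5, 53 of 83 members were higher in kidney than in the mean of brain, liver and lung and 0 lower, where 22.4% and 10.7% of all genes were. The Rieske protein gene Uqcrfs1 had 1.27 ± 0.12, adjusted p = 0.000282 and Atp5g3 1.13 ± 0.12, adjusted p = 0.000426. Without pWT kidney library 2, which leaves 1 kidney library, the count was 29. At P1, 7 were higher in kidney than in the mean of liver and lung and 15 lower, where 37.1% and 29.9% of all genes were. Ndufb5 was higher (0.43 ± 0.08) and Uqcrq lower (-0.68 ± 0.11), with kidney CPM of Uqcrq (93.7, 103 and 91.5) between those of lung (42.5, 50.0 and 50.6) and liver (265, 201 and 230.4).

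In haploid cells the summed level did not separate the genotypes, with 8848, 8187 and 8279.5 CPM in WT, 8639, 8298 and 8188 in TKO and 8745 and 8336 in STOP. Against WT, 2 of 82 members were called higher in TKO, where 9.83% of all genes were, and 3 lower, where 4.72% were. In STOP 3 were higher, where 13.8% of all genes were, and 3 lower, where 9.37% were. These shares were below the background in both directions. Between STOP and TKO 0 members were called (0 also by DESeq2), where 0.0401% of all genes were. An unadjusted p under 0.05 was found for 1 member, against 439 of 14959 genes.

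Cox7b2, the testis form of subunit VIIb, stood out. It had 0.119, 0.377 and 0.0984 CPM in WT, 2.17, 1.38 and 1.84 in TKO and 2.7 and 3.33 in STOP, from 2, 8 and 2 counts in WT against 29 to 45 in TKO and 51 to 66 in STOP. The groups did not overlap. The log2 fold change was 3.06 ± 0.48, adjusted p = 0.00589 in TKO and 3.75 ± 0.51, adjusted p = 0.00407 in STOP. It made up 0.18% of the Cox7b family per kb in WT, 2.31% in TKO and 3.96% in STOP, so the widely expressed Cox7b remained the main form. Ndufv3, an accessory subunit of complex I, rose from 23.2, 21.0 and 20.3 CPM in WT to 36.7, 35.3 and 25.03 in TKO (0.53 ± 0.13, adjusted p = 0.0299) and 34.8 and 36.9 in STOP (0.64 ± 0.14, adjusted p = 0.019). Sdhd, a membrane anchor of complex II, fell from 121, 104 and 109.9 to 75.1, 79.9 and 91.9 CPM in TKO (-0.48 ± 0.12, adjusted p = 0.035) and 83.7 and 73.7 in STOP (-0.60 ± 0.14, adjusted p = 0.0211). Cox7a1 was also called higher in STOP (1.01 ± 0.28, adjusted p = 0.0354).

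The X-linked members Ndufb11 and Cox7b were called lower in both genotypes. Ndufb11 had log2 fold changes of -0.68 ± 0.17 in TKO and -0.75 ± 0.19 in STOP, and Cox7b -0.58 ± 0.17 and -0.75 ± 0.19. Ndufa1, also X-linked, had -0.67 ± 0.29, adjusted p = 0.146 in TKO. Beside this, the median shift of 488 X-linked genes from the WT mean was -0.68, -0.45 and -0.09 on the log2 scale in the 3 TKO libraries and -0.49 and -0.40 in the STOP libraries. The part of that shift in the X-linked members was not tested. Counts moved with the libraries used. In TKO they were 1 without TKO library 1 or 2 or any of WT libraries 1, 2 and 3, and 21 without TKO library 3. In STOP they were 1, 2 and 1 without WT library 1, 2 and 3. They were 1 without STOP library 1 and 0 without STOP library 2, where 1 STOP library is left and the WT and TKO libraries give the spread. Of the glycolysis list, 3 of 22 rose and 1 fell in TKO and 7 rose and 0 fell in STOP, led by Ldhb (2.91 ± 0.44 in STOP).

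Of the pIR embryos, blastocysts had called members. At the 2C stage 0 of 78 were called (0 also with an unadjusted p under 0.05 and by DESeq2), where 0% of all genes were. In morulae 0 of 82 were called, where 0.136% of all genes were. An unadjusted p under 0.05 was found for 14 of 82 members, against 1467 of 11773 genes. DESeq2 called 2 members, against 194 genes higher and 144 lower of 11773. In blastocysts 27 of 80 were called higher, where 6.74% of all genes were, and 0 lower, where 3.9% were. The median log2 fold change was 0.39, against -0.07 over all genes. The summed level was 47919, 49869, 45281 and 44975 CPM in pIR against 38213, 38611, 43799 and 41902 in pWT, without overlap. By complex, 15 of 37 were called in I, 2 of 4 in II, 2 of 8 in III, 2 of 14 in IV and 6 of 17 in V.

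Ndufa10, an accessory subunit of complex I, was at 186, 180.4, 177 and 187 CPM in pWT and 321, 375, 348 and 296 in pIR blastocysts, a log2 fold change of 1.08 ± 0.16, adjusted p = 0.00631. Every pIR library was above every pWT library. Uqcrc1 was at 497, 517, 759.7 and 449 against 929.8, 1284, 1489 and 904 CPM (1.25 ± 0.24, adjusted p = 0.0112), again without overlap. Ndufa8 (0.91 ± 0.18) and Ndufa9 (0.98 ± 0.21) of complex I followed. Both membrane anchors of complex II rose, Sdhd from 151, 230.2, 216 and 183 to 307, 337, 339 and 293 CPM (0.90 ± 0.18, adjusted p = 0.0127) and Sdhc by 0.92 ± 0.20 on the log2 scale. The catalytic subunits Sdha (-0.12 ± 0.18, adjusted p = 0.694) and Sdhb (0.47 ± 0.23, adjusted p = 0.204) were not called, nor was Atp5b (0.06 ± 0.20, adjusted p = 0.869).

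Related lists in pIR blastocysts gave 34 higher and 1 lower of 78 mitochondrial ribosomal proteins, 9 and 0 of 50 assembly factors, 5 and 0 of 18 TCA cycle genes and 1 and 4 of 19 glycolysis genes. Mdh2 of the TCA cycle had a log2 fold change of 1.04 ± 0.21 and the cytochrome c1 gene Cyc1 0.75 ± 0.16. The pluripotent cell list was at 5303, 5016, 5354 and 5627 CPM in pWT and 7026, 7029.6, 6991 and 6140.2 in pIR, the trophectoderm list at 2985, 3458, 4902 and 5561 and 4922, 5167, 5816 and 3968, and the primitive endoderm list at 466, 424, 299 and 451 and 309, 221, 178 and 347. The pluripotent cell list did not overlap between genotypes and the other 2 did. Their part in the members' difference was not tested. Fold changes also ran with transcript length (rho = -0.32 across all genes, which are not independent replicates), and members are short, with a median of 732 bases against 2229. Among 79 members with a length, rho had the other sign, at 0.35. With the length trend removed 6 members were called and the median was 0.13. Without pWT library 1, 2 or 4 the count was 5, 3 and 11, and without pIR library 2 or 3 it was 4 and 5. The difference between the pIR effects in blastocysts and morulae called 0 members (0 also by DESeq2), where 0% of all genes were. An unadjusted p under 0.05 was found for 14 of 82 members, against 1101 of 13697 genes. A difference between the stages was therefore not shown.

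Of the pTKO tissues at E18.5, the heart had the most called members, while the difference between tissues was not tested. In heart 66 of 83 members were called lower, where 11.9% of all genes were, and 1 higher, where 15% were. The median log2 fold change was -0.61, against 0.01 over all genes. All 5 complexes took part, with 29 of 37 called lower in I, 3 of 4 in II, 6 of 8 in III, 14 of 17 in IV and 14 of 17 in V, and medians from -0.58 to -0.64. The summed level was 49949 and 46710.4 CPM in pWT and 34422 and 34665 in pTKO hearts. It was lower in pTKO on the TMM scale as well, with means of 29980 against 45886.

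Cox8a was at 573 and 552 CPM in pWT and 329 and 319 in pTKO hearts, a log2 fold change of -0.87 ± 0.10, adjusted p = 0.0185. Cox4i1 was at 1939.6 and 1894 against 1152 and 1191 CPM (-0.79 ± 0.11, adjusted p = 0.0194), and Atp5g2 at 329.5 and 321 against 189 and 203 (-0.81 ± 0.11, adjusted p = 0.0191). None of these ranges overlapped. Ndufa7 (-0.77 ± 0.09), Ndufb2 (-0.88 ± 0.12) and Ndufa2 (-0.69 ± 0.10) fell likewise in complex I. The muscle isoforms fell with the widely expressed ones. Cox6a2 went from 700.2 and 638 to 425 and 436 CPM (-0.72 ± 0.12, adjusted p = 0.024), Cox7a1 fell by 0.57 ± 0.09 and Cox8b by 0.54 ± 0.09 on the log2 scale. In complex II Sdhb (-0.68 ± 0.11), Sdhc (-0.66 ± 0.12) and Sdhd (-0.57 ± 0.11) were called and the flavoprotein Sdha was not (-0.14 ± 0.11, adjusted p = 0.364). Ndufs1, the largest subunit of complex I, was the only member called higher, at 447 and 451 CPM in pWT and 625 and 623 in pTKO (0.40 ± 0.10, adjusted p = 0.0421). Uqcrb, named after its values were seen, was not called (0.39 ± 0.24, adjusted p = 0.277), with 239 and 157 CPM in pWT and 281 and 270.4 in pTKO.

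Mitochondrial ribosomal proteins in pTKO hearts moved as the members did, with 40 of 78 lower and 0 higher (median -0.54), led by Mrps24 (-1.19 ± 0.12). Assembly factors were 11 lower and 2 higher of 50. One of the 2 was Lrpprc, which stabilises mitochondrial mRNA (0.57 ± 0.10). Of 18 TCA cycle genes 5 were lower, such as Mdh2 (-0.57 ± 0.12), and 2 higher, such as Dld (1.11 ± 0.24). Regulators of mitochondrial gene expression were 7 higher and 3 lower of 21. Ppargc1a, a coactivator known for inducing respiratory chain genes, was among the higher ones (1.40 ± 0.10, adjusted p = 0.0165), with Gabpb2, the beta partner of GABPA (1.34 ± 0.11), and Esrrg (1.15 ± 0.15). In the list of membrane carriers, which also holds mitochondrial creatine kinases, the kinase gene Ckmt2 was lower (-0.81 ± 0.10). The ADP/ATP carrier Slc25a31, best known from the germ line, was higher (3.998 ± 0.54).

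The cardiomyocyte list was at 80296 and 72685 CPM in pWT and 78916 and 84487 in pTKO hearts, with 3 genes higher and 1 lower of 12, and its summed levels overlapped. The feeder fibroblast list was at 5165 and 5154 and 6096 and 5443 CPM, the erythroid list at 3823 and 3963 and 2490.3 and 1217 and the hepatocyte list at 61.5 and 286 and 3239 and 69.5. The part of these 4 lists in the members' difference was not tested. Fold changes rose with transcript length (rho = 0.34 across genes), and with that trend removed 33 members were called, with a median of -0.34. Without pTKO library 1 or 2 the count was 0 and 0, and without pWT library 1 or 2 it was 67 and 72, in fits of 2 libraries against 1 where the group of 2 alone gives the spread.

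In the other pTKO tissues 1 member was called. In brain Atp5e, the epsilon subunit of the ATP synthase, was at 25.4 and 23.5 CPM in pWT and 41.3 and 32.4 in pTKO (0.57 ± 0.13, adjusted p = 0.0423), where 0.689% of all genes were called higher and 1.06% lower. That call was lost without pWT library 1 or 2, and the count was 2 and 13 without pTKO library 1 and 2. These fits, and those without a library in the next tissues, set 2 libraries against 1. In brain 77 of 80 members had a positive log2 fold change, with a median of 0.18. In kidney 0 of 82 were called (0 also by DESeq2), where 0% of all genes were. An unadjusted p under 0.05 was found for 17 of 82 members, against 2374 of 16595 genes in kidney. Its median was -0.29, the summed levels 14696 and 16080.3 CPM in pWT and 13116 and 11332 in pTKO did not overlap, and 23 were called without pWT library 1. In liver 0 of 81 were called (0 also with an unadjusted p under 0.05 and by DESeq2), where 0% of all genes were, and 8 without pWT library 1. In lung 0 of 83 were called (0 also with an unadjusted p under 0.05 and by DESeq2), where 0% of all genes were. Lung pTKO library 1 stood apart, at 10737 and 6705 CPM in libraries 1 and 2 against 7035 and 6804 in pWT. The median of 0.48 in lung rested on it, being 0.01 without it, and the 76 members called without pTKO library 2 compare library 1 alone with the 2 pWT libraries, which alone give the spread.

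**Figure D4:**
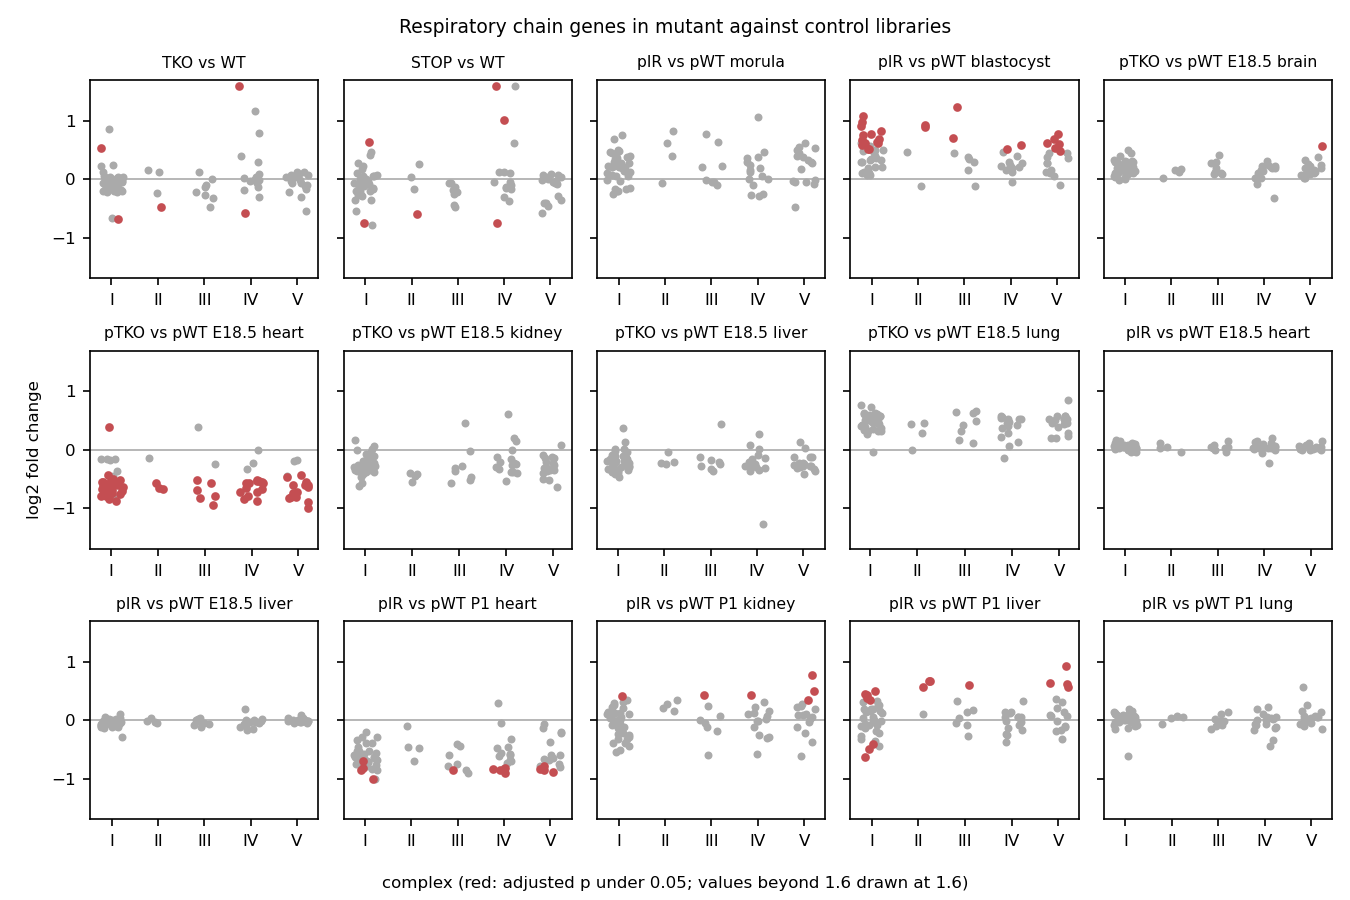
Log2 fold change (vertical axis) of each tested member by complex (horizontal axis) in 15 mutant against control comparisons, with called members in red. Called members are mostly above 0 in pIR blastocysts and below 0 in pTKO E18.5 hearts and pIR P1 hearts.

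In pIR tissues at E18.5 no member was called. In heart 0 of 83 were called (0 also with an unadjusted p under 0.05 and by DESeq2), where 0.0137% of all genes were. The log2 fold changes lay between -0.23 and 0.20, with a median SE of 0.06. The summed level was 29974, 29784, 28129 and 29379 CPM in pIR and 26454, 29072, 29664 and 30642 in pWT. In liver 0 of 80 were called (0 also by DESeq2), where 0% of all genes were, and the log2 fold changes ran from -0.29 to 0.20. An unadjusted p under 0.05 was found for 2 of 80 members, against 813 of 14652 genes. The pIR effects in heart and liver differed for 0 members (0 also by DESeq2), where 0.00622% of all genes did. An unadjusted p under 0.05 was found for 4 of 83 members, against 848 of 16065 genes.

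At P1 the pIR heart was lower. Of 83 members 13 were called lower, where 0.786% of all genes were, and 0 higher, where 1.54% were. The median log2 fold change was -0.66, against 0.00 over all genes, and 82 of 83 values were negative. In CPM 69 of 83 had pIR ranges below pWT ranges. The share of all genes with such ranges was not counted, so that number is no result about the members. The summed level was 38052 and 30573 CPM in pIR and 43366, 49712 and 44468 in pWT hearts, and on the TMM scale the means were 27594 and 39536. Calls fell in complex I (4 of 37), III (1 of 8), IV (4 of 17) and V (4 of 17).

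Ndufc1, a small subunit of complex I, was at 169, 187 and 155 CPM in pWT and 88.5 and 92.8 in pIR hearts, a log2 fold change of -1.01 ± 0.15, adjusted p = 0.0374. Cox7a2 was at 429, 447 and 427 against 253 and 243 CPM (-0.90 ± 0.14, adjusted p = 0.0394) and its muscle form Cox7a1 at 132, 139.6 and 122 against 78.9 and 79.6 (-0.83 ± 0.14, adjusted p = 0.0399). In each the 2 pIR libraries were close together and below all 3 pWT libraries. Small subunits of the ATP synthase were called too, namely Atp5k (-0.79 ± 0.13), Atp5mpl (-0.89 ± 0.14) and Atp5e (-0.86 ± 0.14). Other muscle isoforms were not called. Cox6a2 had 742, 842 and 931 CPM in pWT and 894 and 529.8 in pIR, where the pIR libraries differed widely (-0.33 ± 0.25, adjusted p = 0.454), and Cox8b 149, 157 and 151 and 125 and 90.3 (-0.59 ± 0.17, adjusted p = 0.0973). In complex II Sdha had -0.09 ± 0.19, adjusted p = 0.795 and Sdhb -0.69 ± 0.22, adjusted p = 0.111.

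Related lists gave few calls in P1 pIR heart, with 1 lower of 78 mitochondrial ribosomal proteins, 2 lower of 50 assembly factors and 0 of 18 TCA cycle genes, although the medians were -0.45, -0.37 and -0.39. Ndufaf4, an assembly factor of complex I, fell by 1.17 ± 0.17 on the log2 scale. The cardiomyocyte list was at 63668, 75464 and 65889.7 CPM in pWT and 57267 and 46488 in pIR hearts, with 1 higher and 0 lower of 12 genes, the feeder fibroblast list at 4609, 3371 and 3097 and 7293 and 10892, with 4 of 7 genes higher, and the erythroid list at 5368, 5723 and 6737 and 3589 and 3106, with 4 of 9 lower. None of the 3 lists overlapped between genotypes, and their part in the members' difference was not tested. The count in P1 heart was 0 without pWT library 1, 2 or 3. Without pIR library 2 it was 0 and without pIR library 1 it was 34, with 1 pIR library left and the spread from pWT alone. It was 1, with a median of -0.43, with the length trend removed (rho = 0.24 across genes). DESeq2 gave 57, where over all genes it called 844 higher and 749 lower of 15021. The fit without a filter gave 40, and 65 were called where all P1 libraries shared one fit.

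**Figure D5:**
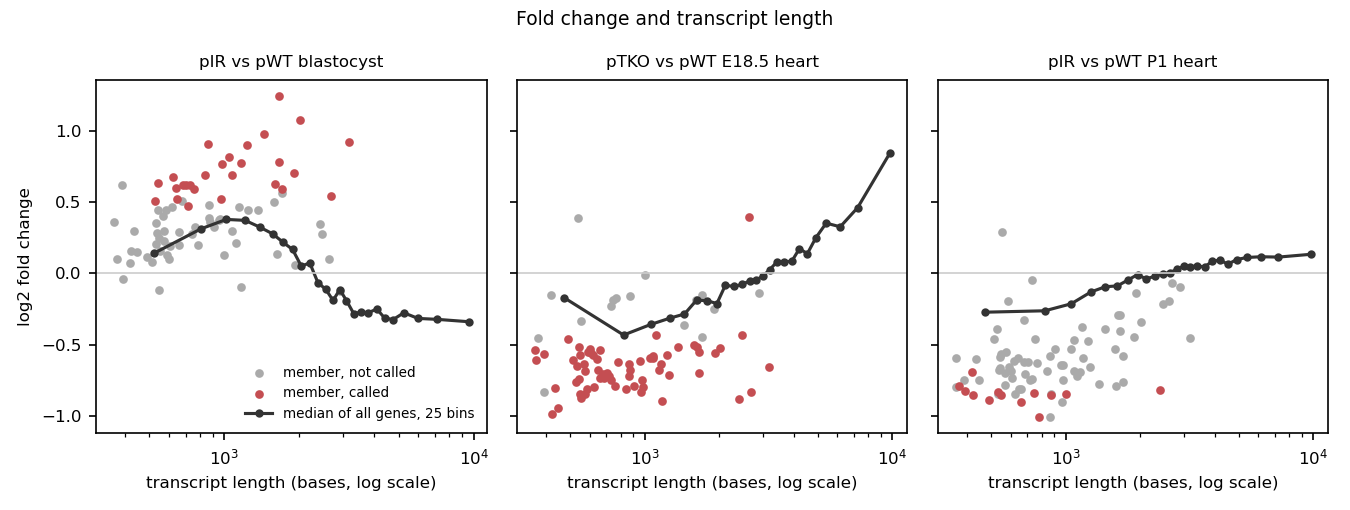
Log2 fold change (vertical axis) against transcript length (horizontal axis, bases, log scale) for members (points, called ones in red) in pIR blastocysts, pTKO E18.5 hearts and pIR P1 hearts, with the median of all genes in 25 bins of length as a line. Members sit at the short end, mostly above the line in blastocysts and below it in both hearts.

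The pIR effect in P1 heart was tested against its mean in kidney, liver and lung. It was lower in heart for 52 of 83 members, where 4.24% of all genes were, and higher for 0, where 3.12% were, with a median difference of -0.68. Calls were 21 of 37 in complex I, 3 of 4 in II, 7 of 8 in III, 8 of 17 in IV and 13 of 17 in V. Ndufv3 had a difference of -0.82 ± 0.13, adjusted p = 0.00329, Ndufb7 -0.93 ± 0.17, adjusted p = 0.0061, Cox7c -0.87 ± 0.17, adjusted p = 0.00698 and Ndufa12 -0.95 ± 0.19, adjusted p = 0.00743. With the length trend removed 57 were called. The count was 31 without pWT heart library 2, and 0 without pIR heart library 2, which leaves 1 pIR heart.

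In P1 kidney 6 of 81 were called higher, where 7.58% of all genes were, and 0 lower, where 3.06% were, so the share was near the background. Atp5g1 was at 121, 129 and 106 CPM in pWT and 190.0 and 202 in pIR (0.77 ± 0.12, adjusted p = 0.0106), and Atp5b (0.51 ± 0.09) and Uqcrc1 (0.44 ± 0.10) followed. The kidney tubule and glomerulus list was at 2262, 2612 and 2156 CPM in pWT and 4537 and 4777 in pIR, with 6 of 10 genes higher, and its part was not tested. Without pWT library 1 or 2 the kidney count was 0 and 3, and without pIR library 1 or 2, with 1 pIR library left, it was 2 and 11, the latter with 5 higher and 6 lower. In lung 0 of 83 were called, where 2.6% of all genes were. An unadjusted p under 0.05 was found for 1 member, against 3198 of 16203 genes. DESeq2 called 1 member, against 560 genes higher and 525 lower of 16203.

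In P1 liver 16 of 81 members were called in pIR, 13 higher and 3 lower, where 39.2% of all genes were called, 3018 higher and 2694 lower of 14588 in pIR vs pWT P1 liver. The members' share was below that background. Atp5g1 was at 131, 153 and 147 CPM in pWT and 217 and 213 in pIR (0.93 ± 0.13, adjusted p = 0.000197), as in kidney higher in both pIR libraries. Sdha was at 157, 161 and 162 against 186 and 214 CPM (0.67 ± 0.13, adjusted p = 0.00203), and Sdhd (0.68 ± 0.15) and Sdhc (0.56 ± 0.13) rose as well, so 3 of 4 complex II genes were called. Of complex V, Atp5c1 (0.64 ± 0.13) and Atp5a1 (0.62 ± 0.14) rose. The 3 lower ones were in complex I. Ndufa5 went from 46.8, 37.6 and 45.7 to 17.4 and 26.7 CPM (-0.62 ± 0.19, adjusted p = 0.0219), beside Ndufs7 (-0.49 ± 0.13) and Ndufa6 (-0.41 ± 0.13). With the length trend removed 21 were higher and 0 lower. The TCA cycle had 9 higher and 1 lower of 18 and the electron carriers 6 and 0 of 10, led by Gpd2 (2.13 ± 0.18).

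The direction of the whole set in P1 liver turned with the scale. In CPM the summed level was lower in pIR (10639 and 11724 against 12836, 11719.6 and 12257), though pIR library 2 lay just inside the pWT range. On that scale 48 of 81 members had pIR ranges below pWT ranges. The share of all genes with such ranges was not counted, so that number is no result about the members. On the TMM scale the pIR mean was higher (16004 ± 1955, SD, n = 2, against 13586 ± 360, n = 3), and the median log2 fold change was 0.06. The hepatocyte list was at 66996, 81398 and 66724 CPM in pWT and 145407 and 168312 in pIR, with 7 of 9 higher, and the erythroid list at 94911, 83051 and 105180.0 and 38015 and 25129, with 9 of 12 lower. Neither list overlapped between genotypes, and their part in the members' values was not tested. Without pWT library 3 the count of called members was 10.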

How the data were processed

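RNA-seq of 87 mouse libraries was used. Each of 10 tables holds raw read counts per gene, whole numbers that the authors deposited without normalization. The submitters' processing notes name Trim Galore 0.6.6, HISAT2 2.1.0, featureCounts 1.6.4, DESeq2 and the mm10 build. The strand setting of the counting was not given in the sources used here. Library totals were 6.14 to 37.4 M counts. The sample of 11 columns with the prefix O48 was assigned by elimination within their group. These columns are every pWT library of the stages up to the blastocyst, and the prefix is in no sample title. All comparisons of those stages therefore rest on this assignment. No 2 replicates agreed within sampling noise (lowest chi-square per degree of freedom 3.65).

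Each comparison was fitted over all genes with edgeR 4.0.16 (quasi-likelihood F test, two-sided, filterByExpr with a minimum count of 10, TMM scaling, Benjamini-Hochberg adjustment over all genes tested, threshold 0.05) in R 4.3.3. The SE is the log2 fold change over the square root of F. The fits were tested on simulated data. Tests used the group's own tissue, stage and batch. Transcript lengths were medians of GENCODE M21 principal transcripts, found for 85 members. Alternatives were DESeq2 1.42.0, its size factors, no filter, the replicate number as a block, removal of the trend with length, a shared fit and each library left out, and for levels TMM sizes and totals without haemoglobin genes.

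Values were named for up to 6 called members a direction with the smallest p, for isoform families, Sdh genes, X-linked members and the highest and lowest members, and for up to 3 called genes of each of 9 pathway lists. The members, lists and 15 marker lists were chosen with earlier results of these data known.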

Additional observations from a re-analysis of the deposited data

Results flagged for a closer look

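Outlying libraries were looked for in groups of 4, with 174 checks of summed levels, Sdh genes and the Cox4, Cox6a, Cox6b, Cox7 and Cox8 isoforms, and 12 stood out, where chance gives about 1 in 20. In E18.5 liver of pIR, 1 library lay above the other 3, with a summed level of 10434 CPM against 8872 to 8994 CPM. The same group had a high library for complex I (2287 CPM against 1914 to 1940), complex II (779 against 661 to 680), complex V (4404 against 3873 to 3879), Sdhb (99.2 against 85.3 to 86.8), Sdhc (161 against 135 to 137) and Cox7b (177 against 144 to 146). Sdhd was at 0.614 CPM in 1 pWT 2C library, from 11 counts, against 11.7 to 13.4 CPM in the others. In E18.5 pWT heart of batch 2, 1 library was low for Sdhd (305 CPM against 360 to 362) and 1 for Cox8b (34.2 against 53.5 to 56.9). Cox6a1 was at 1908 CPM in 1 pWT blastocyst library against 1072 to 1169 CPM, and Cox6a2 at 5.83 CPM in 1 pIR 2C library against 3.37 to 3.58 CPM.

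The pIR effect differed between P1 heart and the mean of kidney, liver and lung for 52 members, by edgeR's test of the interaction, all lower in heart.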

How the results depend on the processing

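The check of single fold changes covered up to 6 called members a direction with the smallest p in each comparison, and Uqcrb in pTKO heart. None of these changed sign in the alternatives run. Other members named in the text were not part of this check. Of the alternative log2 fold changes in this check, 1178 kept their side of the threshold, 178 lost it and 1 gained it. Of counts of called members 302 stayed within 1.5 times and 56 moved. Of isoform shares, 149 moved by more than the group's SD in raw counts in place of counts per kb, and 130 did not. Of summed levels, 182 moved by more than the SD with TMM sizes or totals without haemoglobin genes, and 190 did not. TKO had 5 called, 9 with DESeq2, 10 with the replicate block and 1 to 21 with a library left out. STOP had 6, 10 with DESeq2 and 0 to 2 with a library left out. DESeq2 gave 2 in pIR morula, 5 in blastocyst against morula, 57 in P1 heart and 1 in P1 lung. Removing the length trend gave 6 in blastocyst, 0 in pTKO brain, 33 in pTKO heart, 1 in P1 heart and 33 in E18.5 kidney against other tissues. No filter gave 8 in pTKO brain and 40 in P1 heart, and the shared fit 0 in pTKO brain and 65 in P1 heart. Leaving out a library gave 3 to 30 in blastocyst, 0 to 13 in pTKO brain, 0 to 72 in pTKO heart, 0 to 23 in kidney, 0 to 8 in liver and 0 to 76 in lung. At P1 it gave 0 to 34 in heart, 0 to 11 in kidney, 10 to 19 in liver and 0 to 65 for the heart interaction, and 29 to 58 for E18.5 kidney against other tissues. Fewer samples enter those fits, and where a group of 2 lost a library the spread came from the other groups alone. The cause of the other moves was not tested. The replicate block gave 0 in P1 heart, 1 in P1 lung, 47 in pTKO heart and, in P1 kidney, 2 higher and 6 lower in place of 6 and 0. Replicate numbers are not stated to pair samples, and same-numbered samples did not correlate above 0.1 in every pair of a comparison with 3 or more pairs. Single pairs reached 0.563 in E18.5 pWT heart against other tissues (20 pairs, lowest -0.101) and 0.565 for kidney (12 pairs, lowest -0.103). With 2 pairs, STOP against WT (0.109 to 0.144), pTKO lung (0.171) and pIR P1 lung (0.186 to 0.195) were above 0.1 throughout. The main tests treated all libraries as independent. In pTKO heart, kidney and liver the correlations were -0.34, -0.16 and -0.21, and crossed numbers, tried after seeing the data, gave 52, 0 and 0 called. With 2 to 4 libraries a group, small differences are not detectable, and at the 2C stage low members rest on few counts.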

Other observations

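Uqcrb differed between the 2 pWT libraries of batch 1 at E18.5 in a way chosen for mention after its values were seen. It was at 239 and 157 CPM in heart, 80.3 and 34.4 in kidney and 53.3 and 14.3 in liver, lower in library 2 each time, and at 45.5 and 49.6 in brain and 62.2 and 73.8 in lung, higher in library 2. The pTKO libraries were at 281 and 270.4, 87.6 and 73.8 and 49.8 and 48.6 CPM in heart, kidney and liver. The labels do not say whether libraries of the same number share an animal.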
